A study of Mus musculus with 8 samples.

Results

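Cytotoxic granule genes encode the proteins that killer lymphocytes store in, and release from, secretory lysosomes. The 10 genes described here were taken from the expression table by their symbols, and all 10 were found among its 34745 genes. They comprise the granzymes Gzma, Gzmb, Gzmc, Gzmk and Gzmm, the pore-forming protein Prf1, and the granule partners Nkg7, Srgn, Ctsw and Cst7. Their transcripts were measured by bulk RNA sequencing in 3 progenitor populations sorted from fetal liver of untreated wild-type B6 mice. CLP (common lymphoid progenitors, 3 libraries) were sorted as lineage-negative CD45+CD127+ cells that carried Flt3 and lacked CD25. ILCP (innate lymphoid cell progenitors, 3 libraries) and ILC1/3P (2 libraries, a name that the labels do not spell out) were Flt3-, α4β7+ and CD25-. ILCP were PD-1+CD94- and ILC1/3P were PD-1-CD94+. All groups share strain and wild-type genotype, and 1 batch date is entered for the 8 libraries alike. The labels also enter an adult age in weeks, which goes against fetal tissue. They do not say how many fetuses made up a library.

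In a killer cell, perforin opens pores in the membrane of the target and granzymes, a family of serine proteases, enter through them and cleave proteins inside. Granzymes are made as inactive precursors, trimmed by cathepsin C, and held in the granule on the sulphated sugar chains of serglycin, the product of Srgn. Natural killer (NK) cells and ILC1 are the innate lymphoid cells best known for such granules, while ILC3 are known mainly for cytokines.

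The libraries held 4991939 to 8082476 counts assigned to genes. Levels of 1 gene across libraries are given as CPM, the gene's count scaled to a common library size by TMM, a method that centres the bulk of genes. The members are ranked against each other by the deposited FPKM, which are per gene length. Where CPM of different genes stand side by side, they are not corrected for length. Genes were tested with edgeR's quasi-likelihood test over all 13436 genes that passed a filter on low counts, with Benjamini-Hochberg adjustment, and an adjusted p under 0.05 was called. Nothing in the labels says that libraries of a group came from separate animals, so p-values measure the spread between these libraries, which may be technical. Of the genes sorted on, Flt3 was at 400.1 to 569.6 CPM in CLP and at most 1.28 CPM elsewhere, and Klrd1 (CD94) was at 1183 and 1627 CPM in ILC1/3P and at most 71.4 CPM elsewhere. Pdcd1 (PD-1) was at 0 in CLP and at 44.6 to 107 CPM in ILCP, and it had 10.2 and 17.5 CPM in ILC1/3P, whose gate was PD-1-. Il2ra (CD25), which all gates excluded, was at 0 in CLP but at 6.25 to 9.25 CPM in ILCP and 0.821 and 3.78 CPM in ILC1/3P. Of the α4β7 genes, Itgb7 was at 0.735 to 8.26 CPM in CLP, 28.3 to 113 CPM in ILCP and 39.1 and 65.9 CPM in ILC1/3P, while Itga4 was lower in ILC1/3P (100.1 and 168 CPM) than in CLP (301 to 411 CPM) and ILCP (417 to 489 CPM). Il7r (CD127) was at 379 to 525 CPM in CLP, 461 to 500.2 CPM in ILCP and 214 and 215 CPM in ILC1/3P, and Ptprc (CD45) was at 188 to 339.7 CPM in all libraries.

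The granule genes were not expressed as a block. Gzma, Nkg7 and Ctsw were each higher in ILCP than in CLP and higher again in ILC1/3P, Gzmb appeared in ILCP and ILC1/3P at low level, and Gzmc had counts in the 2 ILC1/3P libraries and in no other. Srgn was higher in ILC1/3P than in both other groups, Cst7 passed no test, and Prf1, Gzmk and Gzmm were at or near 0. In ILCP against CLP, 4 of the 7 members that passed the filter were higher and 0 lower, where 6.79% of all genes tested were called, 3.91% higher and 2.87% lower. In ILC1/3P against CLP, 6 of 7 were higher and 0 lower, beside 23.5% of all genes called, 11.8% higher and 11.7% lower. In ILC1/3P against ILCP, 5 of 7 were higher and 0 lower, beside 16.3% of all genes called, 8.06% higher and 8.25% lower. The median log2 fold change of the 7 was 3.36, 5.58 and 1.91 in that order, against 0.0069, -0.25 and -0.23 over all genes tested. Gzmc passed the filter through ILC1/3P alone, so it had to differ there, and its values are a description. Without it, 4, 5 and 4 of 6 members were higher in the 3 comparisons and 0 lower, with median log2 fold changes of 3.53, 5.21 and 1.89. Gzma and Gzmb passed the filter through ILCP and ILC1/3P, with 1 and 0 of 3 CLP libraries at the level it asks for. Their values against CLP, and the member counts and medians against CLP that hold them, are therefore a description as well. The same holds for related genes that reached the filter's level in no CLP library, among them Serpina3g, Serpina3f, Sytl3, Chst11, Ikzf3, Tbx21 and Eomes. Counts of called genes against CLP that include such genes are likewise a description. The members were also chosen with earlier results of these data known. The 3 members below the filter (Gzmk, Gzmm and Prf1) are described by their counts only. The 3 comparisons share libraries and are not independent of each other. In bulk libraries, fewer cells that express a gene and less RNA per cell cannot be told apart.

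**Figure D1:**
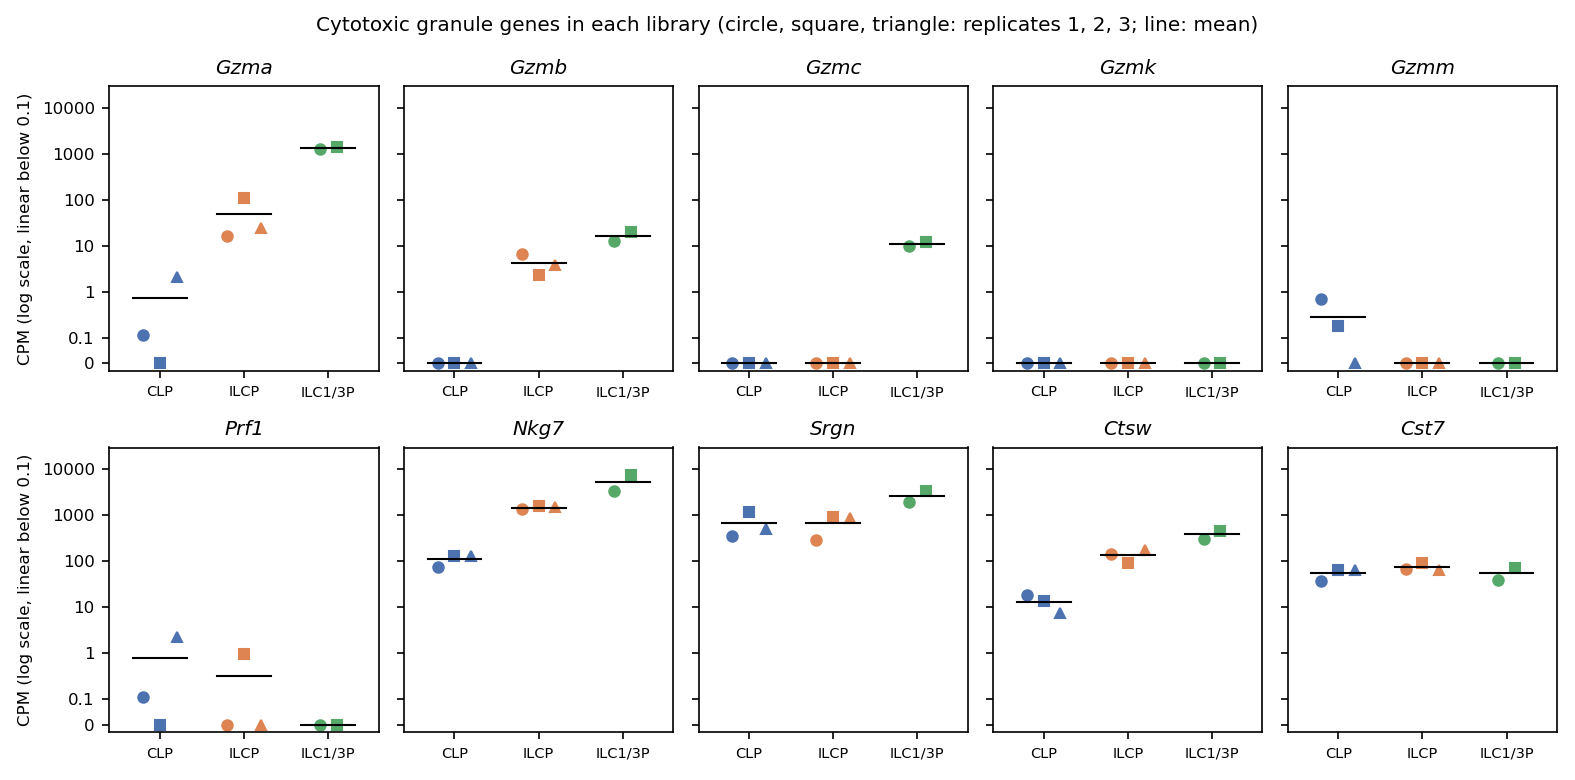
Each panel shows 1 granule gene, with CPM on a log axis (linear below 0.1) for the 3 CLP, 3 ILCP and 2 ILC1/3P libraries, a symbol per replicate number and a line at the group mean. Gzma, Nkg7 and Ctsw step up from group to group without overlap, Cst7 lies level, and Gzmk is at 0 in all 8 libraries.

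Gzma (ENSMUSG00000023132) encodes granzyme A, a protease that cleaves after arginine or lysine. In the table's mm10 coordinates it lies at chr13:113093825-113100979, and it has up to 6 exons in GENCODE M21. It was at 0.113, 0 and 2.07 CPM in the CLP libraries, at 16.8, 108 and 24.7 CPM in the ILCP libraries, and at 1248 and 1401 CPM in the ILC1/3P libraries. No library of one group reached the range of another, and ILCP replicate 2 stood above the other 2 ILCP libraries. The group means were 0.729 ± 1.17 CPM (SD, n = 3), 49.8 ± 50.4 CPM (SD, n = 3) and 1325 ± 108 CPM (SD, n = 2). Against CLP, the log2 fold change was 6.07 ± 0.97 in ILCP (SE, adjusted p = 0.00257) and 10.80 ± 1.11 in ILC1/3P (adjusted p = 7.69e-05). ILC1/3P lay above ILCP by 4.73 ± 0.82 (adjusted p = 0.00326), a ratio of mean CPM of 26.6.

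The size of the Gzma differences rested on single libraries. CLP replicate 3 held 14 of the 15 Gzma counts of CLP, and without it the log2 fold change was 9.14 for ILCP and 13.9 for ILC1/3P against CLP. That library also had 6 counts of Serpina3g, 19 of Cpa3, 7 of Tbx21 and 15 of Prf1, genes at 0 or 1 counts in the other 2 CLP libraries, and the part of these reads in the Gzma value was not tested. Without CLP replicate 1 the values were 5.46 and 10.2. Without ILCP replicate 2, ILCP lay 4.79 above CLP and 6.05 below ILC1/3P on the log2 scale. Scaling by library totals in place of TMM gave 10.1 for ILC1/3P against CLP and 4.14 against ILCP. In ILCP replicates 1, 2 and 3, NK cell and ILC1 genes were at 43.3, 19.0 and 71.4 CPM for Klrd1, 20.9, 19.5 and 6.89 CPM for Klrc1, 5.82, 0.414 and 5.62 CPM for Tbx21, 4.83, 3.31 and 0 CPM for Eomes, and 2.98, 0.552 and 0 CPM for Ncr1. Replicate 2 was also the ILCP library with Prf1 counts (7). The part of such transcripts in its Gzma value was not tested. All these Gzma calls held, but ILCP against CLP missed the threshold with no filter on low counts (adjusted p = 0.0637).

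Gzmb (ENSMUSG00000015437) encodes granzyme B, which cleaves after aspartate and can start apoptosis of the target. It lies at chr14:56258856-56262260. It had 0 counts in all 3 CLP libraries, 6.67, 2.35 and 3.80 CPM in ILCP, and 12.5 and 19.8 CPM in ILC1/3P. The 3 groups did not overlap. Against the limit of 3 counts over the 3 CLP libraries, Gzmb was at least 29.8-fold higher in ILCP (adjusted p = 0.0119) and at least 109-fold higher in ILC1/3P (adjusted p = 0.00201). Between ILC1/3P (16.2 ± 5.19 CPM, SD, n = 2) and ILCP (4.27 ± 2.20 CPM, SD, n = 3) the log2 difference of 1.91 ± 1.06 (SE) was not called (adjusted p = 0.261), although all ILC1/3P libraries lay above all ILCP libraries, and was 1.24 with scaling by library totals.

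Gzmc (ENSMUSG00000079186) encodes granzyme C, a protease of the same chromosome 14 cluster as granzyme B, at chr14:56231401-56234656, 24.2 kb from Gzmb. It had 0 counts in the 6 CLP and ILCP libraries and 61 and 51 counts in the ILC1/3P libraries, or 10.0 and 12.0 CPM. ILC1/3P was thus at least 76.1-fold above CLP and at least 77.4-fold above ILCP. Of the 845 distinct 50-base stretches of the Gzmc transcript, 4.14% also occur in Gzmd, Gzme or Gzmg, so a small share of its reads could be split among these paralogs, and Gzmd, Gzme and Gzmg had 0 counts in all 8 libraries.

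Gzmk (ENSMUSG00000042385) and Gzmm (ENSMUSG00000054206) encode the granzymes K and M. Gzmk, at chr13:113171608-113225908 and 70.6 kb from Gzma, had 0 counts in all 8 libraries. The pooled limit of 3 counts allows it up to 0.143 CPM in CLP, up to 0.140 CPM in ILCP and up to 0.291 CPM in ILC1/3P. Its neighbour Gzma, by contrast, reached 1401 CPM. Gzmm, at chr10:79689020-79695261, had 6, 1 and 0 counts in CLP and 0 counts in the 5 other libraries. Neither gene was tested, and both stayed at 0 or a few counts in every library. The other proteases of the chromosome 14 cluster were close to silent: 12 of the 13 listed (Gzmd to Gzmg, Gzmn, Ctsg, Cma1, Cma2 and the Mcpt genes) were at 0 counts in each group, with Ctsg at 3.67 CPM in 1 CLP library as the exception in CLP and Cma1 in ILCP and ILC1/3P.

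Prf1 (ENSMUSG00000037202), at chr10:61297836-61304263, encodes perforin. Its counts were 1, 0 and 15 in CLP, 0, 7 and 0 in ILCP, and 0 and 0 in ILC1/3P. Nearly all of them thus came from CLP replicate 3 and ILCP replicate 2, while the ILC1/3P libraries with the highest Gzma had none. Over both ILC1/3P libraries the limit of 3 counts allows up to 0.291 CPM of Prf1, beside a mean of 1325 CPM of Gzma. Prf1 did not pass the filter and was not tested.

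By FPKM, granzyme A made up most of the granzyme signal in ILCP and ILC1/3P. Its share of the summed FPKM of the 5 granzymes was 98.6% and 98.3% in the ILC1/3P libraries and 80.2%, 98.7% and 91.3% in the ILCP libraries. In the CLP libraries, where that sum was 0.638, 0.115 and 2.57 FPKM, the share was 24.9%, 0% and 100%. In ILC1/3P the mean was 1071 FPKM for Gzma, 8.37 ± 0.40 FPKM for Gzmc and 8.01 ± 1.95 FPKM for Gzmb (SD, n = 2). The ILCP means were 60.7 ± 59.1 FPKM (SD, n = 3) for Gzma and 3.39 ± 1.91 FPKM for Gzmb. Gzmc and Gzmb were at like levels per length in ILC1/3P, and both lay far below Gzma there.

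**Figure D2:**
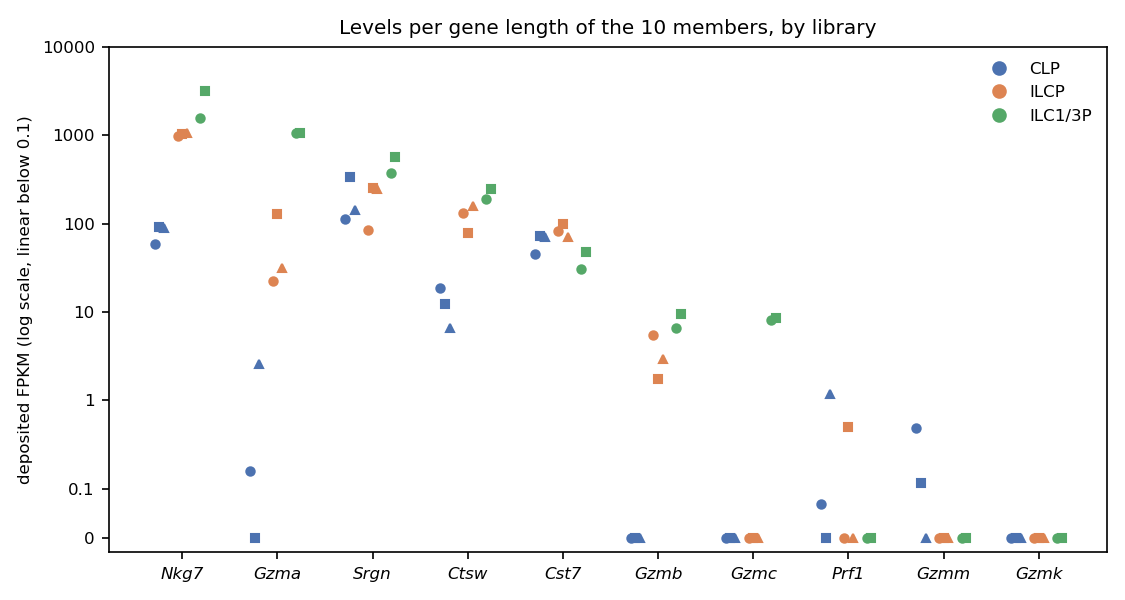
Deposited FPKM of the 10 granule genes on a log axis (linear below 0.1), 1 symbol per library, with groups by colour and genes ordered by their highest value. Nkg7, Gzma, Srgn and Ctsw reach the highest levels, Gzmb and Gzmc stay under 10 FPKM, and Prf1, Gzmm and Gzmk lie at or near 0.

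The granule partners took different places in that order from group to group. In ILC1/3P the order by mean FPKM (SD, n = 2) was Nkg7 at 2357 ± 1107, Gzma at 1071 ± 0.35, Srgn at 474 ± 138, Ctsw at 220 ± 39.4 and Cst7 at 39.4 ± 12.7, and no neighbours in this order overlapped between the 2 libraries. In ILCP the order (SD, n = 3) was Nkg7 at 1023.5 ± 32.4, Srgn at 194 ± 94.5, Ctsw at 124 ± 41.6, Cst7 at 83.9 ± 13.6 and then Gzma, and those below Nkg7 overlapped with their neighbours. In CLP it was Srgn at 199 ± 123, Nkg7 at 79.5 ± 18.0, Cst7 at 62.9 ± 14.8 and Ctsw at 12.5 ± 5.96, where Nkg7 and Cst7 overlapped. The cystatin Cst7 thus stood above Ctsw and Gzma in CLP and below both in ILC1/3P.

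Some of the genes next to the granule genes were silent and others were expressed. Beside Gzma, Cdc20b (2630 bases away) averaged 0 CPM in CLP and ILCP and 1.30 CPM in ILC1/3P, and the other neighbour is Gzmk. Beside Gzmb and Gzmc, Atp12a and Gzmf had 0 CPM in all groups. Beside Nkg7, Lim2 (1077 bases away) had 0 CPM in all groups and Cldnd2 at most 0.296 CPM on average. Vps26a, a retromer gene 7028 bases from Srgn, averaged 180.1, 191 and 69.4 CPM in CLP, ILCP and ILC1/3P, lowest where Srgn was highest. Efemp2, 5475 bases from Ctsw, averaged 0.0377, 15.1 and 3.98 CPM in the same order, lowest in CLP as Ctsw was and highest in ILCP. Not every neighbour is printed, and those printed are given by their levels only.

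Upstream sequences of members were taken from RefSeq (build GRCm38.p6), where 9 of the 10 genes had an entry, with 11 start sites. Shown here are the 250 bases before the start site of the 3 granzymes that differed between groups, and of Prf1, which had few or no counts in the same libraries. They lie at chr13:113100982-113101231 (Gzma), chr14:56262335-56262584 (Gzmb), chr14:56234658-56234907 (Gzmc), all on the minus strand, and chr10:61297586-61297835 (Prf1, plus strand). Each is written 5′ to 3′ along its gene, and capitals mark every match, on either strand, to the core letters AGGTGT of T-box factors such as T-bet and Eomes or TGTGGT of RUNX factors.
Gzma: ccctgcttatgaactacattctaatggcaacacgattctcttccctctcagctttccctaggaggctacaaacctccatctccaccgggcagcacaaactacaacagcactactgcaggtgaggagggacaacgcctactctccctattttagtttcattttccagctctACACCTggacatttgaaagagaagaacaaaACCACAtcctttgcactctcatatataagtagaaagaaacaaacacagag
Gzmb: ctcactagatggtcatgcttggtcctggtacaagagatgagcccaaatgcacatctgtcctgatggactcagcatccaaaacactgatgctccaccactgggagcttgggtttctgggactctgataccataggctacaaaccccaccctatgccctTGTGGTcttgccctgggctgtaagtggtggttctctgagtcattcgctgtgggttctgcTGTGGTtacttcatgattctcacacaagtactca
Gzmc: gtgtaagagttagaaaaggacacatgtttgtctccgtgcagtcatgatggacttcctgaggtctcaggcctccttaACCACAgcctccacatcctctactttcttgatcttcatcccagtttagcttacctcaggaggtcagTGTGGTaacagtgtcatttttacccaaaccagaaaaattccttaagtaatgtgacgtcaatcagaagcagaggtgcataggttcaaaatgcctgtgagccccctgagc
Prf1: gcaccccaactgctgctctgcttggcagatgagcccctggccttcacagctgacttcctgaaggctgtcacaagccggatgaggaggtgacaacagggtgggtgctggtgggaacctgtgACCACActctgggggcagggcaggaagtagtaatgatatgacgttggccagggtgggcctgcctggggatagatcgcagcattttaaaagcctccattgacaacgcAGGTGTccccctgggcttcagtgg

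Across the members, the RUNX letters were found in 8 of the 11 windows (those of Gzma, Gzmb, Gzmc, Gzmm, Prf1, Nkg7, Srgn and Cst7), while 14.05% of 32851 RefSeq promoter windows of that length hold them. The T-box letters were found in 4 windows (Gzma, Gzmk, Prf1 and Nkg7), beside 11.8% of all windows. In Gzma the T-box match started 80 bases and the RUNX match 50 bases before the start site, and in Prf1 they started at 24 and 130 bases. Gzmb held 2 RUNX matches, from 93 and 34 bases before the start, with an AP-1 match (TGANTCA, in 6.75% of all windows) between them. Gzmc held 2 RUNX matches as well, from 174 and 108 bases. The ETS letters AGGAAG were in 5 windows, beside 29.5% of all. Windows with both T-box and RUNX letters belonged to Gzma, Prf1 and Nkg7. The Nkg7 window runs into the gene as the deposited table places it, and its T-box match lies in that overlap. The Gzmk window, with its T-box matches, lies wholly inside the gene as the table places it. So do window 2 of Srgn, which holds its RUNX match, and window 2 of Gzmm. A match of 6 or 7 letters is a description of the sequence, not a measured binding site.

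Nkg7 (ENSMUSG00000004612, chr7:43437073-43438249) encodes a small membrane protein of cytotoxic granules that promotes their release. It was at 76.4, 134 and 130 CPM in CLP, 1361, 1562 and 1526 CPM in ILCP, and 3344 and 7484 CPM in ILC1/3P. The groups did not overlap, and the 2 ILC1/3P libraries differed from each other more than those of the other groups did. Means were 113 ± 32.2 CPM (SD, n = 3), 1483 ± 107 CPM (SD, n = 3) and 5414 ± 2927 CPM (SD, n = 2). Against CLP, the log2 fold change was 3.71 ± 0.34 in ILCP (SE, adjusted p = 5.27e-05) and 5.58 ± 0.39 in ILC1/3P (adjusted p = 3.97e-06), and ILC1/3P lay 1.87 ± 0.34 above ILCP (adjusted p = 0.00408). The last 2 values came to 4.88 and 1.18 (adjusted p = 0.043) without ILC1/3P replicate 2, and to 4.89 and 1.20 when libraries were scaled by their totals alone. By FPKM, Nkg7 was the member with the highest level in each ILCP and ILC1/3P library and ranked 24 to 49 among all genes there, against 750 to 1216 in CLP.

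Srgn (ENSMUSG00000020077, chr10:62493833-62527451) encodes serglycin, the proteoglycan that packs granule proteases, which many blood cells make. It was at 357, 1213 and 515 CPM in CLP, 285, 928 and 871 CPM in ILCP, and 1944 and 3310 CPM in ILC1/3P. CLP and ILCP overlapped over most of their ranges, and both ILC1/3P libraries lay above all 6. The log2 fold change was 0.00029 ± 0.49 (SE, adjusted p = 1) for ILCP against CLP, and 1.92 ± 0.54 for ILC1/3P against each of CLP (adjusted p = 0.0241) and ILCP (adjusted p = 0.033). Both calls were lost with scaling by library totals (1.25 with adjusted p = 0.094, and 1.28 with adjusted p = 0.105) and with no filter on low counts (adjusted p = 0.153 and 0.184). The call against CLP was also lost without CLP replicate 1, CLP replicate 3 or ILC1/3P replicate 2, and that against ILCP without CLP replicate 3, ILCP replicate 1, ILCP replicate 3 or ILC1/3P replicate 2 (adjusted p up to 0.165 and 0.2). Without CLP replicate 2, the highest CLP library, the value against CLP was 2.59 (adjusted p = 0.00989). Srgn had the highest FPKM of the members in each CLP library (113 to 339.9 FPKM).

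Ctsw (ENSMUSG00000024910, chr19:5465240-5468498) encodes cathepsin W, a cysteine protease found mainly in NK cells and cytotoxic T cells. It was at 18.6, 13.8 and 7.55 CPM in CLP, 141, 91.9 and 178 CPM in ILCP, and 314 and 454 CPM in ILC1/3P. The 3 groups did not overlap. Against CLP, the log2 fold change was 3.36 ± 0.38 in ILCP (SE, adjusted p = 0.000187) and 4.84 ± 0.42 in ILC1/3P (adjusted p = 2.1e-05), and the step from ILCP to ILC1/3P was 1.49 ± 0.38 (adjusted p = 0.0203). The last call was lost with scaling by library totals (0.827, adjusted p = 0.179) and without ILCP replicate 1, ILCP replicate 2 or ILC1/3P replicate 2 (adjusted p up to 0.135), and the value against CLP was 4.13 with scaling by totals. In GENCODE M21, 9 of 1887 exon bases of Ctsw overlap Fibp on the opposite strand. Fibp was at 52.6, 53.3 and 25.4 CPM on average in CLP, ILCP and ILC1/3P, lower where Ctsw was highest.

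Cst7 (ENSMUSG00000068129, chr2:150570415-150578944) encodes cystatin F, an inhibitor that restrains cathepsin C and related proteases in the granules of NK cells. It was at 36.7, 65.4 and 63.8 CPM in CLP, 69.2, 92.5 and 63.7 CPM in ILCP, and 39.8 and 71.1 CPM in ILC1/3P. All groups overlapped. From CLP, the log2 difference was 0.44 ± 0.35 to ILCP (SE, adjusted p = 0.582) and 0.002 ± 0.39 to ILC1/3P (adjusted p = 1), and from ILCP to ILC1/3P it was -0.44 ± 0.39 (adjusted p = 0.493). None was called. With scaling by library totals the values for ILC1/3P were -0.675 against CLP (adjusted p = 0.188) and -1.09 against ILCP (adjusted p = 0.0615).

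**Figure D3:**
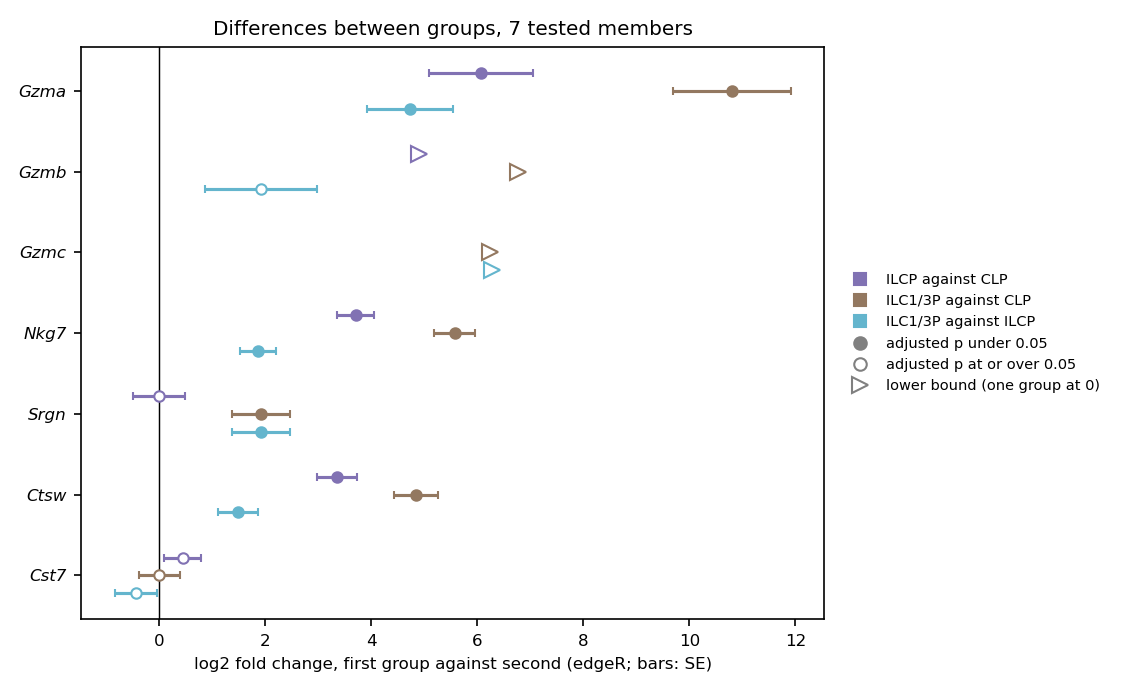
Log2 fold changes of the 7 tested granule genes in the 3 comparisons, with bars for the SE, filled circles for an adjusted p under 0.05, and open triangles for lower bounds where 1 group had 0 counts. Points of Gzma, Nkg7 and Ctsw lie to the right of 0 in all 3 comparisons, while those of Cst7 lie close to 0.

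Summed over the 10 members, granule genes took 0.0603% to 0.155% of all counts in the CLP libraries, 0.219% to 0.295% in ILCP, and 0.521% and 0.856% in ILC1/3P. The largest part of the sum came from Srgn in CLP and from Nkg7 in the other groups. Across the 8 libraries, log2 CPM of Gzmb correlated with Nkg7 and with Ctsw at Pearson r = 0.98, Nkg7 with Ctsw at 0.96 and Gzma with Nkg7 at 0.95. Srgn correlated with these 4 at 0.51 to 0.65, and Cst7 with the 6 other tested members at -0.24 to 0.30. These values describe 8 libraries that fall into 3 groups. Outside the members, the genes closest to the members' mean profile were S100a10 (r = 0.993), Acyp2 (0.992), Plgrkt (0.990), Chmp2a (0.988), Cd7 (0.988), Hint3 (0.986), Ppp1r11 (0.985) and Tmsb15b1 (0.985). Cd7, a surface protein of T, NK and innate lymphoid cells, was at 88.3 ± 18.2 CPM (SD, n = 3) in CLP, 604 ± 146 CPM (SD, n = 3) in ILCP and 4383 ± 2859 CPM (SD, n = 2) in ILC1/3P. These genes were picked for this likeness, so their values are a description.

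Of 7 proteases tested that work on granule contents, 1 rose and 2 fell in ILCP against CLP, 0 rose and 3 fell in ILC1/3P against CLP, and 1 rose and 3 fell in ILC1/3P against ILCP, beside 6.79%, 23.5% and 16.3% of all genes tested called in the same order. Ctsc, encoding the cathepsin C that activates granzymes, was at 221, 307 and 254 CPM in CLP, 625, 662 and 700.4 CPM in ILCP, and 286 and 117 CPM in ILC1/3P. Its ILCP libraries lay above all others, and CLP and ILC1/3P overlapped. Ctsc fell in ILC1/3P against ILCP, where Gzma rose (log2 fold change -1.72 ± 0.35, SE, adjusted p = 0.0075, and -2.51 without ILC1/3P replicate 1). Its rise in ILCP against CLP (1.35 ± 0.30, adjusted p = 0.0194) was lost when any 1 of the 6 libraries of these groups was left out (adjusted p up to 0.088). Lgmn, which encodes the lysosomal protease legumain, fell from 197 ± 50.9 CPM in CLP (SD, n = 3) to 57.2 ± 24.5 CPM in ILCP (SD, n = 3; adjusted p = 0.00681) and 8.28 ± 0.37 CPM in ILC1/3P (SD, n = 2; adjusted p = 5.87e-05 against CLP). Ctsb, encoding cathepsin B, was lower in ILC1/3P than in CLP (log2 fold change -2.44 ± 0.33, adjusted p = 0.000339) and ILCP (-2.20 ± 0.33, adjusted p = 0.00154). Ctss, encoding cathepsin S, fell from 293 ± 59.3 CPM in CLP (SD, n = 3) to 68.7 ± 18.9 CPM in ILCP (SD, n = 3; adjusted p = 0.000906).

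Of 9 inhibitors of granzymes and cathepsins tested besides Cst7, 3 rose and 1 fell in ILCP against CLP, 4 rose and 0 fell in ILC1/3P against CLP, and 5 rose and 0 fell in ILC1/3P against ILCP, where the shares over all genes were 6.79%, 23.5% and 16.3%. Serpina3g, a serpin that inhibits cathepsins, was at 0, 0 and 0.888 CPM in CLP, 174, 279 and 418 CPM in ILCP, and 754 and 516 CPM in ILC1/3P. It rose in ILCP (log2 fold change 9.88 ± 0.74, SE, adjusted p = 9.86e-06) and in ILC1/3P (11.02 ± 0.77, adjusted p = 4.04e-06) against CLP, and the step between them was not called (adjusted p = 0.147). These values were 13.9 and 15.0 without CLP replicate 3, and 9.17 and 10.3 without CLP replicate 1. Serpina3f, a gene of the same serpin cluster, had 2 counts in CLP, 32.5 ± 17.5 CPM in ILCP (SD, n = 3; adjusted p = 6.97e-05) and 151.5 ± 48.7 CPM in ILC1/3P (SD, n = 2; adjusted p = 1.12e-05). Its ratio to CLP, over 2 counts that cannot be told from 0, was 342 in ILCP (95% exact counting interval 94.2 to 2826) and 1658 in ILC1/3P (458 to 13705). Serpinb1a, an inhibitor of neutrophil proteases, fell in ILCP against CLP (log2 fold change -1.02 ± 0.23, adjusted p = 0.0195, lost without any 1 of CLP replicates 2 and 3 and ILCP replicates 1 and 3) and rose in ILC1/3P against ILCP (1.57 ± 0.25, adjusted p = 0.0021). Cstb, the cytosolic cathepsin inhibitor cystatin B, was at 135 ± 32.6 CPM in CLP (SD, n = 3), 252 ± 61.8 CPM in ILCP (SD, n = 3) and 771 ± 181 CPM in ILC1/3P (SD, n = 2), and rose in ILC1/3P against both (adjusted p = 0.00016 and 0.00403). Serpinb9, which inhibits granzyme B and was singled out after its values were seen, was at 12.9 ± 4.58, 12.6 ± 6.19 and 34.2 ± 13.7 CPM (SD, n = 3, 3 and 2) and was not called (adjusted p = 0.987, 0.131 and 0.15 in the 3 comparisons).

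Of 31 tested genes of granule transport and release, 3 rose and 0 fell in ILCP against CLP, 7 rose and 4 fell in ILC1/3P against CLP, and 2 rose and 5 fell in ILC1/3P against ILCP. Over all genes tested, 6.79%, 23.5% and 16.3% were called in these comparisons. Cd63, a membrane protein of secretory lysosomes, was at 12.9, 15.6 and 11.8 CPM in CLP, 96.0, 131 and 125 CPM in ILCP, and 134 and 287 CPM in ILC1/3P. It rose in ILCP (log2 fold change 3.13 ± 0.34, SE, adjusted p = 0.00014) and in ILC1/3P (3.96 ± 0.37, adjusted p = 3.27e-05) against CLP, the latter 3.31 without ILC1/3P replicate 2. Vamp8, a SNARE protein of granule fusion, rose in ILC1/3P against CLP (1.89 ± 0.30, adjusted p = 0.000908) and ILCP (1.76 ± 0.30, adjusted p = 0.00271). Sytl3, of the family of synaptotagmin-like Rab27 partners, was without a count in CLP. ILCP exceeded CLP at least 77.0-fold (adjusted p = 0.00272) and ILC1/3P at least 204-fold (adjusted p = 0.000594). Sytl3 passed the filter through ILCP and ILC1/3P, so its values against CLP are a description. Arl8b, a small GTPase that moves lysosomes along microtubules, fell in ILC1/3P against CLP (-2.71 ± 0.30, adjusted p = 0.000102) and ILCP (-2.03 ± 0.29, adjusted p = 0.00121).

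Among 14 tested genes that build the chondroitin sulphate chains of serglycin, 1 rose and 1 fell in ILCP against CLP, 3 rose and 1 fell in ILC1/3P against CLP, and 1 rose and 0 fell in ILC1/3P against ILCP, with 6.79%, 23.5% and 16.3% of all genes called. Chst11, a chondroitin 4-O-sulphotransferase, had 2 counts in CLP, 26.0 ± 13.6 CPM in ILCP (SD, n = 3) and 34.8 ± 9.53 CPM in ILC1/3P (SD, n = 2), and rose in both against CLP (adjusted p = 0.000346 and 0.000166). Its ratio to CLP, over 2 counts that cannot be told from 0, was 273 in ILCP (95% exact counting interval 75.3 to 2262) and 379 in ILC1/3P (104 to 3141). Chst15, another chondroitin sulphotransferase, fell from 51.7 ± 9.08 CPM in CLP (SD, n = 3) to 7.61 ± 3.59 CPM in ILCP (SD, n = 3; adjusted p = 0.00602) and 8.27 ± 2.01 CPM in ILC1/3P (SD, n = 2; adjusted p = 0.00796, lost without ILC1/3P replicate 2). Chsy1, a chondroitin synthase, rose in ILC1/3P against ILCP (log2 fold change 3.12 ± 0.53, SE, adjusted p = 0.0028), the comparison in which Srgn also rose. Its call against CLP (2.28 ± 0.52, adjusted p = 0.00774) was lost without ILC1/3P replicate 2 and with scaling by library totals (adjusted p up to 0.0765).

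**Figure D4:**
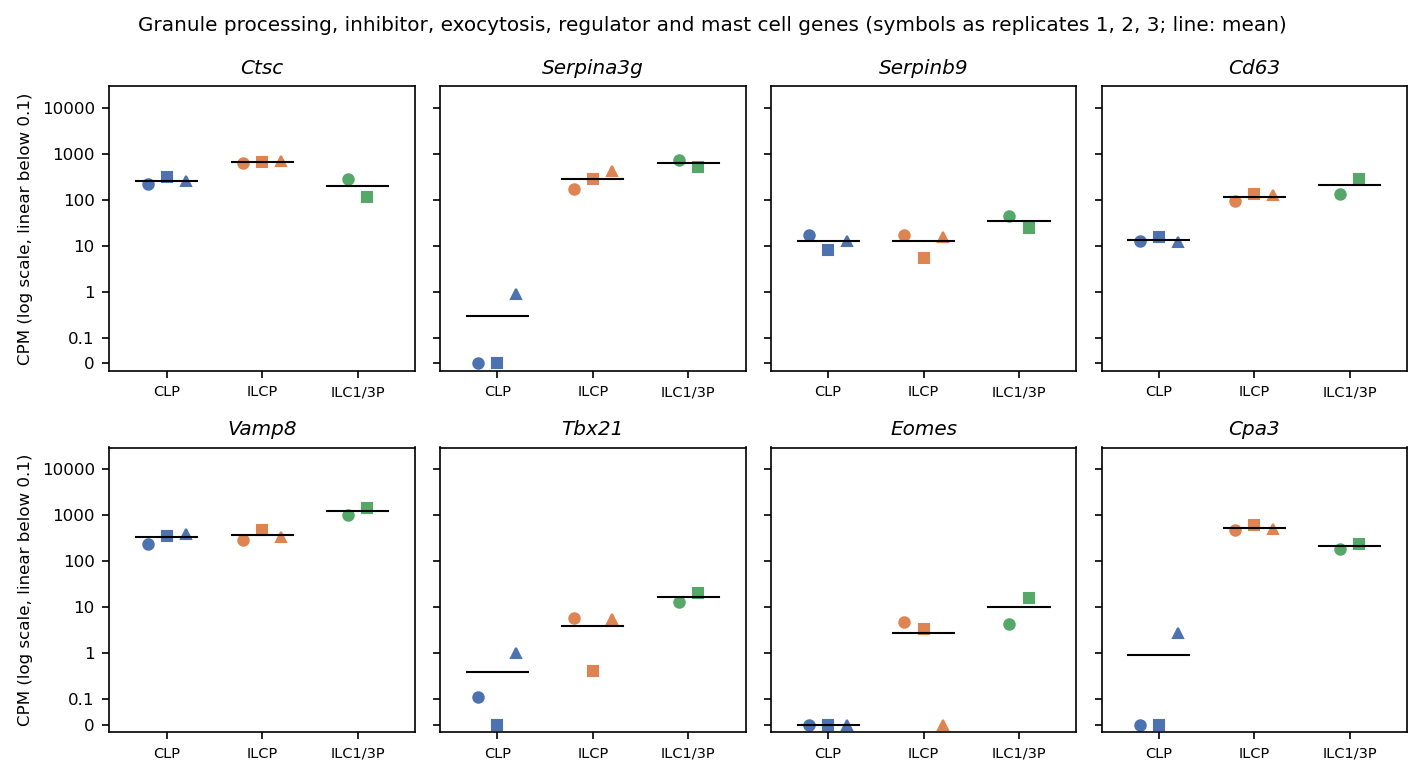
CPM on a log axis (linear below 0.1) in each CLP, ILCP and ILC1/3P library for 8 genes related to granules, with symbols by replicate number and a line at the group mean. Ctsc is highest in the ILCP libraries at 625 to 700.4 CPM, Serpina3g and Cd63 are high in ILCP and ILC1/3P, and Cpa3 is highest in ILCP.

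Of 16 tested regulators of cytotoxic genes, 2 rose and 2 fell in ILCP against CLP, 4 rose and 1 fell in ILC1/3P against CLP, and 3 rose and 0 fell in ILC1/3P against ILCP, against 6.79%, 23.5% and 16.3% called over all genes. Id2, which restrains E proteins and marks innate lymphoid cells, was at 131, 261 and 233 CPM in CLP, 4149 to 4971 CPM in ILCP, and 9964 and 14094 CPM in ILC1/3P. Against CLP, the log2 fold change was 4.44 ± 0.31 in ILCP (SE, adjusted p = 6.04e-06) and 5.85 ± 0.34 in ILC1/3P (adjusted p = 1.63e-06). The step from ILCP to ILC1/3P was 1.41 ± 0.30 (adjusted p = 0.00865), and 0.763 at the lowest under the alternatives. That call was lost without ILC1/3P replicate 2. A pair of T-box genes was singled out after their values were seen. Tbx21 (T-bet) was at 0.113, 0 and 1.04 CPM in CLP, 5.82, 0.414 and 5.62 CPM in ILCP, and 13.1 and 20.3 CPM in ILC1/3P. Eomes was at 0 in CLP, at 4.83, 3.31 and 0 CPM in ILCP, and at 4.27 and 15.8 CPM in ILC1/3P. Both were called in ILC1/3P against CLP (adjusted p = 0.0252 and 0.0246), calls lost without CLP replicate 1, CLP replicate 2 or ILC1/3P replicate 2, and for Eomes also without CLP replicate 3. Tbx21 was higher by 5.37 ± 1.53 on the log2 scale (SE, 7.62 without CLP replicate 3), and Eomes at least 63.2-fold by the limit of 3 counts in CLP. Ikzf3, which encodes the lymphoid zinc finger protein Aiolos, was at 0.444 ± 0.769 CPM in CLP (SD, n = 3), 151 ± 52.4 CPM in ILCP (SD, n = 3) and 50.8 ± 22.3 CPM in ILC1/3P (SD, n = 2). It rose in ILCP (log2 fold change 8.38 ± 0.88, SE, adjusted p = 0.000113) and ILC1/3P (6.80 ± 0.87, adjusted p = 0.000235) against CLP, by 13.0 and 11.4 without CLP replicate 3 and by 7.69 and 6.11 without CLP replicate 1. Irf8 fell in ILCP against CLP (-7.62 ± 0.82, adjusted p = 0.000131, and -9.61 without ILCP replicate 1). It was higher in ILC1/3P than in ILCP (4.57 ± 0.79, adjusted p = 0.00302, and 6.56 without ILCP replicate 1). Irf8 was also lower in ILC1/3P than in CLP (-3.05 ± 0.74, adjusted p = 0.0116, -3.78 to -2.48 under the alternatives). That call was lost without CLP replicate 1 or ILC1/3P replicate 1. Hopx, which encodes a small homeodomain protein, fell in ILCP against CLP (-2.53 ± 0.50, adjusted p = 0.00914, lost without CLP replicate 2 or ILCP replicate 3) and rose in ILC1/3P against ILCP (2.64 ± 0.54, adjusted p = 0.00683).

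Killing can also proceed through ligands of death receptors. Of 5 tested genes of the TNF ligand family (Tnf, Fasl, Tnfsf10, Lta and Ltb), 3 rose and 0 fell in both ILCP and ILC1/3P against CLP. Not all of their products bind death receptors. In ILC1/3P against ILCP, 1 rose and 0 fell. Over all genes, 6.79%, 23.5% and 16.3% were called in the 3 comparisons. Lta, encoding lymphotoxin alpha, rose from 61.3 ± 2.57 CPM in CLP (SD, n = 3) to 438 ± 157 CPM in ILCP (SD, n = 3; adjusted p = 7.77e-05) and 522 ± 8.82 CPM in ILC1/3P (SD, n = 2; adjusted p = 4.69e-05). Ltb, encoding lymphotoxin beta, rose in the same comparisons (log2 fold change 2.30 ± 0.22 and 3.23 ± 0.24, SE, adjusted p = 6.67e-05 and 6.55e-06). It was also the 1 gene called in ILC1/3P against ILCP (0.94 ± 0.23, adjusted p = 0.0186, and 0.286 at the lowest under the alternatives). That call was lost with scaling by library totals and without ILCP replicate 3 or ILC1/3P replicate 2. Tnf, added after its values were seen, was not called (adjusted p = 0.867, 0.224 and 0.44 in the 3 comparisons). Tnfsf10, encoding the ligand TRAIL, was at 3.44 ± 3.64 CPM in CLP (SD, n = 3), 47.5 ± 31.4 CPM in ILCP (SD, n = 3) and 72.2 ± 3.66 CPM in ILC1/3P (SD, n = 2), with both calls against CLP (adjusted p = 0.029 and 0.00719) lost with no filter on low counts. The call in ILCP was also lost with only the 2 groups fitted and without CLP replicate 1, ILCP replicate 2 or ILCP replicate 3 (adjusted p up to 0.149). Fasl, singled out after its values were seen, was listed at 0 in CLP and was not called (4.81 ± 1.79 CPM in ILC1/3P, SD, n = 2; adjusted p = 0.0616 against CLP).

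Markers of other granule-bearing cells moved with the groups. The 18 markers of NK cells and ILC1 summed to 687 to 797 CPM in CLP, 866 to 992 CPM in ILCP, and 3823 and 5707 CPM in ILC1/3P, with Ncr1 at 395 and 302 CPM in ILC1/3P and at most 2.98 CPM elsewhere. Of the 14 tested, 8 were higher in ILC1/3P against CLP (Ncr1, Klrb1c, Klrk1, Klre1, Eomes, Tbx21, Fcgr3 and Tyrobp) and 2 lower (Irf8 and Cd27), beside 23.5% of all genes. Klra4, Klra7, Klra8 and S1pr5 had 0 counts in ILC1/3P and averaged at most 0.325 CPM in the other groups. Eomes, Tbx21, Irf8 and Cma1 of this list also stand on another list used here. The 13 T cell markers summed to 380.5 to 744 CPM in CLP and 4914 to 6734 CPM in ILCP. In ILC1/3P they summed to 7153 and 9425 CPM. The highest ILC1/3P means were Trbc2 (3845 CPM), Cd3g (2850 CPM), Trbc1 (1308.5 CPM) and Cd3d (156 CPM). Cd3e and Cd6 had 1.06 and 0.118 CPM there. Cd4 had 0 counts in ILCP and ILC1/3P, Cd5 in ILCP and Cd8b1 in ILC1/3P. Of the 13 (all tested), 7 were higher in ILCP (6.79% of all genes) and 6 in ILC1/3P (23.5%) against CLP, with 0 lower. In ILC1/3P against ILCP (16.3%), Trbc2 was higher and Lat and Cd8b1 lower. These last calls were each lost under some alternatives. The 12 mast cell and basophil markers in the table summed to 49.2 to 88.2 CPM, 588 to 770 CPM, and 215 and 306 CPM, most of it Cpa3 in ILCP (480.0 to 626 CPM). On this list Mcpt4, Tpsab1, Tpsb2, Fcer1a, Ms4a2, Mcpt8 and Prss34 had 0 counts in all 8 libraries. Others had counts in CLP, ILCP and ILC1/3P of 0, 52 and 10 (Cma1), 1, 15 and 0 (Gata2), and 55, 46 and 79 (Hdc). Kit averaged 67.3, 116 and 40.6 CPM in the same order. The 15 myeloid granule markers summed to 707 to 922 CPM in CLP, most of it Mpo (437 to 710 CPM). In ILCP they summed to 32.2 to 38.9 CPM and in ILC1/3P to 59.5 and 95.6 CPM. Elane had 21 counts in CLP replicate 3 and Ctsg 20 in CLP replicate 2, and both had 0 elsewhere. S100a9 and Camp had 0 counts in CLP, 46 and 4 in ILCP, and 29 and 31 in ILC1/3P. Of 8 tested, 0 were higher and 3 lower in ILCP against CLP (beside 6.79% of all genes). In ILC1/3P, 1 was higher and 2 lower against CLP (23.5%), and 1 higher and 0 lower against ILCP (16.3%). The part of NK, ILC1 and T cell transcripts in the granule gene differences was not tested.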

How the data were processed

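Total RNA of sorted cells was reverse transcribed in the lysate (SMARTer Ultra Low kit), amplified by PCR and sequenced (NovaSeq6000), per the labels' protocols. The authors deposited counts and FPKM for each gene in 1 table. Per the submitters' processing notes the build was mm10. No aligner, counter, annotation or strand setting is stated (not given in the sources used here). Amplified reads without molecular identifiers are not independent molecules. Limits from 0 counts (3 counts) and counting intervals therefore cover counting error only and leave out the spread between libraries. Groups and replicate numbers came from the titles.

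The test was edgeR 4.0.16 under R 4.3.3 (filterByExpr, TMM, robust quasi-likelihood fit, 1 mean per group, all 8 libraries, two-sided). CPM were counts over TMM-scaled totals. DESeq2 1.42.0, other scalings, no filter, a replicate block, other samples in the fit and leaving out each library were tried.

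The members and the gene lists were chosen with earlier results of these data known. Named genes were all members, up to 4 called genes per list by smallest p, all sort markers, the most abundant markers and the 8 genes of most like profile (mean of at least 20 CPM). Not every gene the rule takes is printed. Exons came from GENCODE M21 and promoters from RefSeq.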

Additional observations from a re-analysis of the deposited data

How the results depend on the processing

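All 15 alternatives kept the direction of each called member. Of the member values under them, 256 kept direction and call, 28 lost the call and 16 changed sign, the last in Srgn and Cst7 in comparisons where neither was called. With scaling by library totals, 3 of 7 members were called in ILC1/3P against ILCP instead of 5, and the replicate block also gave 3. Scaling by totals moved the median log2 fold change of all genes tested from -0.25 to -0.93 for ILC1/3P against CLP and from -0.23 to -0.86 for ILC1/3P against ILCP, and the share of calls that were higher from 50.3% to 25.3% and from 49.4% to 18.2%. Leaving out 1 library gave 2 to 5 called members in ILC1/3P against ILCP, 4 to 6 in ILC1/3P against CLP and 4 in ILCP against CLP. Over all genes, ILCP against CLP gave 912 calls, 1610 with DESeq2 and 587 to 1114 without 1 library, and ILC1/3P against ILCP gave 2192, with 1333 to 2161 without 1 library. For Srgn in ILCP against CLP, the log2 difference was -0.011 with DESeq2 size factors, -0.033 with library totals, -0.0013 with no filter, -0.011 with the DESeq2 test, -0.00895 with only the 2 groups fitted, and -0.315 to 0.673 without 1 library. For Cst7 in ILC1/3P against CLP it was -0.675 with library totals, -0.0068 with no filter, -0.00565 with the replicate block, and -0.475 to 0.36 without 1 library. The cause of these changes was not tested.

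With the replicate number as a block, members called were 3, 5 and 3 in the 3 comparisons, and the member calls lost were Gzmb in ILCP against CLP (adjusted p = 0.0627), Gzmc against CLP and ILCP, and Ctsw against ILCP (0.0728). Of the related genes whose calls the text prints, Eomes lost its call against CLP under the block (adjusted p = 0.0678), as did Cd27 (0.0568). Lat (0.0509) and Cd8b1 (0.125) lost theirs in ILC1/3P against ILCP. All member counts here include Gzmc, which had to differ, and Gzma and Gzmb, which passed the filter through ILCP and ILC1/3P. Deviations of same-numbered libraries from their group means correlated at -0.033 to 0.087, and those of other numbers at -0.093 to 0.033. CLP replicates 1 and 2 correlated best with the ILCP library of their own number (0.087 and 0.057), and CLP replicate 3 with ILCP replicate 2 (0.032). Deviations within such small groups are tied to each other, so this check cannot show whether libraries were paired. Leaving out 1 ILC1/3P library leaves a lone sample, assumed to vary like the other groups. Counts of 3 or fewer per group could not be told from 0.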
